A study of Mus musculus with 8 samples.

Results

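The TCF/LEF transcription factor Tcf7l2 and 9 other genes of the Wnt pathway were examined for acetylation of histone H3 at lysine 27 (H3K27ac), a mark of active promoters and enhancers, in Oli-neu cells. The 10 genes were chosen by name, out of 21951 protein-coding genes in the annotation. They were the 4 TCF/LEF factors (Tcf7l2, Tcf7l1, Tcf7 and Lef1), the gene of β-catenin (Ctnnb1), the scaffold genes Apc, Axin1 and Axin2, and the inhibitor genes Apcdd1 and Rnf43. All peaks over the body of each gene or within 20 kb of it were taken from both deposited lists. Oli-neu is a line of mouse cells with oligodendrocyte character, which the labels describe as embryonic oligodendrocyte progenitors of strain C57BL/6. The line is known to carry the t-neu oncogene, an activated erb receptor. The study set 1 library of proliferating cells beside 1 library of differentiating cells, both immunoprecipitated with an antibody to H3K27ac, and its ATAC-seq samples (3 siCtr and 3 siPadi2) were not analysed here. Proliferating cells were kept in medium with T3 (340 ng/ml), L-thyroxine (400 ng/ml), bFGF (10 ng/ml) and Pdgf-BB (1 ng/ml). Differentiating cells were expanded in the same medium and then held for 1 day, according to the labels, in medium lacking growth factors with 1 μM of the erb inhibitor PD174265. The culture methods of the study give a longer time. As each state had 1 library, no difference between the states could be tested, and all differences below compare 2 libraries.

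In the canonical Wnt pathway a complex of Axin, APC and the kinases GSK3 and CK1 holds β-catenin low by marking it for degradation. Binding of a Wnt ligand to a Frizzled receptor and its LRP co-receptor stops this complex, and β-catenin then enters the nucleus and joins a TCF/LEF factor on its target genes, which TCF/LEF otherwise represses together with TLE proteins. In the oligodendrocyte lineage the pathway is known to affect the passage from progenitor to myelinating cell, and TCF7L2 is known as a factor of cells that have just begun to differentiate.

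The proliferating list held 28924 peaks with a median width of 652 bp, and the differentiating list held 27965 with a median width of 755 bp. Each peak carried a fold enrichment and a −log10 q (the adjusted significance given by the peak caller), and since the lists hold no read counts, the number of reads behind a peak is unknown. The methods of the study give more uniquely mapped reads for the differentiating library, and the part of depth in the differences between the lists was not tested. Both values were ranked within their own list, so a percentile of 90 means that 90% of that list's peaks had a lower −log10 q. In the cell type check, promoter peaks (any overlap with the 3000 bp before or the 100 bp after the transcription start site, TSS) were present at 3 of 8 oligodendrocyte lineage genes in proliferating cells and at 4 of 8 in differentiating cells. Olig1, Olig2 and Sox10 had one in both lists, at percentiles of 73.6 to 97.6, and Sox8 had one in the differentiating list, whereas the progenitor genes Pdgfra and Cspg4 and the factor Nkx2-2 had none. Of 12 markers of astrocytes, neurons and microglia, none had a promoter peak in proliferating cells and 1, the neuronal Syt1, had one in differentiating cells. Among all protein-coding genes, 23.7% and 27.7% had a promoter peak. Within 20 kb of the gene, where 62.7% of all genes had a peak in either list taken alone, 9 and 7 of these 12 markers had one, so that peaks at this distance did not set them apart. Pdgfra, Cspg4 and Nkx2-2, which lacked a promoter peak, each had peaks within this distance in both lists.

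All 10 genes had at least 1 peak in one of the lists, 8 in proliferating and 9 in differentiating cells, and 7 had peaks in both. Among all protein-coding genes, 62.7% had a peak within the same distance in proliferating cells, 62.7% in differentiating cells and 72.4% in either. Tcf7l2 and Tcf7l1, the longest of the 10 genes, held 16 of the 27 proliferating peaks and 19 of the 32 differentiating peaks. The other genes held between 0 and 4 peaks in a state. Tcf7 and Lef1 had peaks in differentiating cells alone and Apcdd1 in proliferating cells alone. Promoter peaks were found at Tcf7l2, Tcf7l1 and Apc in proliferating cells and at Tcf7l1, Apc, Axin1 and Axin2 in differentiating cells, which is 3 and 4 of 10 genes. The share of all protein-coding genes with a promoter peak was 23.7% in proliferating and 27.7% in differentiating cells, and 17.6% had one in both states, as did Tcf7l1 and Apc here. When the start of every transcript was counted, 4 and 6 of the 10 genes had a promoter peak, beside 31.3% and 35.3% of all genes.

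**Figure D1:**
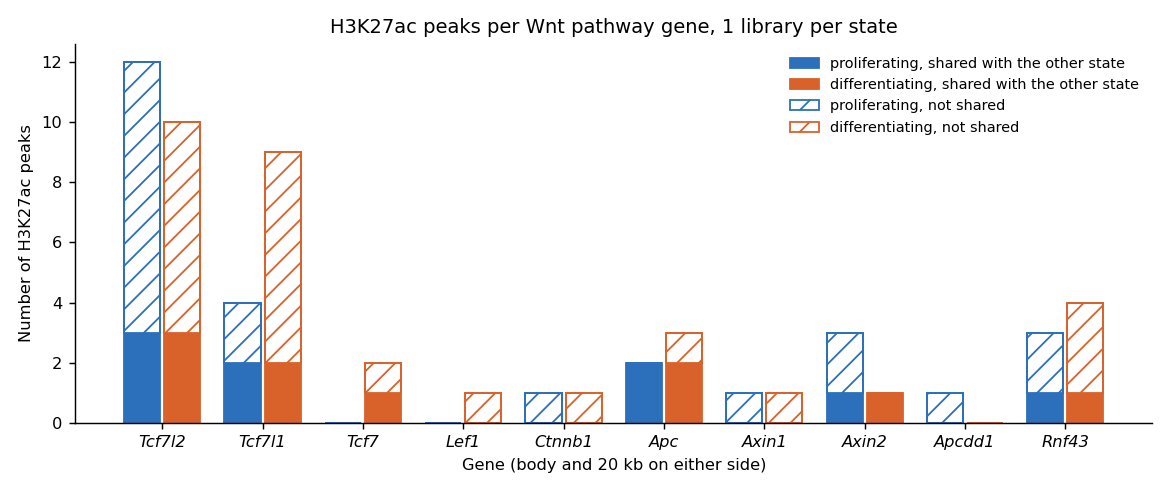
Bars give the number of H3K27ac peaks (y axis) over the body or within 20 kb of each of the 10 genes (x axis) in the proliferating (blue) and differentiating (orange) library, with the filled part shared between the states and the hatched part not shared. Tcf7l2 had 12 and 10 peaks and Tcf7l1 had 4 and 9, while the other genes had between 0 and 4.

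Tcf7l2 (ENSMUSG00000024985.19, chr19:55741820-55933654 on the plus strand of GRCm38) encodes the TCF factor named above, and its annotation lists 22 transcripts. Of these, 16 start within 1025 bp of the first TSS and 6 start 151532 to 156733 bp downstream, in intron 4 of the reference transcript (GENCODE, 13 exons). The gene had 12 peaks in proliferating cells, or 51.8 per Mb, against 17 per Mb on chromosome 19 as a whole. In differentiating cells it had 10, or 43.1 per Mb, against 15.8 per Mb. More peaks were thus found at Tcf7l2 than at 99.5% and 99.1% of protein-coding genes by number, and by density, which takes account of its length, than at 90.3% and 84%. The peaks covered 9110 bp in proliferating and 6558 bp in differentiating cells and fell into 19 distinct regions, of which 3 were marked in both states. With a reciprocal overlap of at least 0.5, 1 of these 3, the one over exons 2 and 3, still counted as shared.

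The first of the 3 shared regions lay just inside the gene, over exons 2 and 3 of the reference transcript. It was 863 bp wide in proliferating cells, from 940 to 1802 bp past the first TSS, with a fold enrichment of 3.22 and a −log10 q of 2.08 (percentile 57.5). In differentiating cells it ran from 870 to 1955 bp, with a fold enrichment of 2.90 and a −log10 q of 1.62 (percentile 33.4). This region held 63% G and C in proliferating and 64.5% in differentiating cells, against medians of 47.1% and 47.5% over all peaks. It lay outside the promoter region as defined here, and the promoter peak of Tcf7l2 was a separate one in proliferating cells, from −1909 to −892 bp, with a fold enrichment of 2.89 (percentile of −log10 q 18.4). When every transcript start was used, or 1000 bp on either side of the TSS, the shared region counted too, and Tcf7l2 had a promoter peak in both states.

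The second shared region was in intron 3. In proliferating cells it spanned 46849 to 48148 bp past the first TSS and was the highest ranked Tcf7l2 peak of that list, with a fold enrichment of 3.79 and a −log10 q of 3.43 (percentile 87.8). In differentiating cells it spanned 47521 to 48223 bp, with a fold enrichment of 2.88 and a −log10 q of 1.67 (percentile 37). The third shared region, in intron 4, ranked in the opposite order. Its differentiating peak was 378 bp wide, from 96119 to 96496 bp, with a fold enrichment of 4.45 and a −log10 q of 6.82 (percentile 97.6), the highest of all Tcf7l2 peaks. It lay wholly within a proliferating peak of 1622 bp that had a fold enrichment of 3.13 and a −log10 q of 1.88 (percentile 47).

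The central bases of the shared regions in introns 3 and 4 are shown, since these are intronic parts of Tcf7l2 marked in both libraries. They were read from the GRCm38.p6 assembly of RefSeq on the plus strand, with no part in capitals because none of the motifs searched was found.
Tcf7l2 intron 3 region, chr19:55789505-55789804 (+ strand): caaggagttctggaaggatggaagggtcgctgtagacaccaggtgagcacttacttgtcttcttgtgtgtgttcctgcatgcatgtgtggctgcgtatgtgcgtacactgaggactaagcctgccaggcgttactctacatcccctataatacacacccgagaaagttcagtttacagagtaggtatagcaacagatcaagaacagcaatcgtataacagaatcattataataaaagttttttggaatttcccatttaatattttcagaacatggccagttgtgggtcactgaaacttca
Tcf7l2 intron 4 region, chr19:55837978-55838277 (+ strand): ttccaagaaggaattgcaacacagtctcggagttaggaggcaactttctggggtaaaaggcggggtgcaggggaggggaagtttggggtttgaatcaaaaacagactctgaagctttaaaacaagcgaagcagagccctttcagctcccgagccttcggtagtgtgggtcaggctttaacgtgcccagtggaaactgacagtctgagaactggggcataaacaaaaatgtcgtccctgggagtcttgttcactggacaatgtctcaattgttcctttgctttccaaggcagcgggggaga

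These windows were 43% and 50.3% G and C. Neither of them held CTTTGA, the core of the TCF/LEF motif, ACAAAG, a core of SOX motifs, or the E-box CAGCTG on either strand. The absence says only that these letters did not occur in the printed window. The proliferating peak of the intron 3 region is wider than its shared part, and its own central 300 bp did hold CTTTGA.

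The remaining peaks of Tcf7l2 were present in one list only, 9 in proliferating and 7 in differentiating cells. With the shared regions counted too, intron 3 (74566 bp) held 6 of the 10 differentiating peaks, against 3 of the 12 proliferating peaks. Intron 4 (90557 bp) held 4 proliferating peaks and 1 differentiating peak, the latter being that of the shared region. By count, the 2 introns thus differed in which library had more peaks. The lists differ in their limit, however. Of the 6 differentiating peaks in intron 3, 2 had a q above 0.05, whereas all 27 proliferating peaks at the 10 genes had a q of at most 0.05. In intron 3 the highest ranked peaks seen in differentiating cells alone had percentiles of 77.6 (279 bp wide) and 77.3 (1879 bp wide). The 2 with a q above 0.05 were also seen in differentiating cells alone, had −log10 q of 1.28 and 1.08 and lay at percentiles of 5.2 and 0.4. The former was 104 bp from a proliferating peak at percentile 47.8, so that the absence of sharing there rested on a short gap.

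Towards the end of the gene, the proliferating list alone had peaks in intron 4 at percentiles of 28.5 and 76.5 and in intron 10 at a percentile of 87.4, with a fold enrichment of 4.19 and a −log10 q of 3.39. The first of these, 263 bp wide, covered the TSS of one of the 6 late transcripts. A further 2 proliferating peaks lay downstream of the gene, at percentiles of 64.8 and 19.9. The differentiating list had 1 peak in this stretch, in intron 7, at a percentile of 15.1. The map of peaks by distance from the TSS shows these positions beside the transcripts.

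**Figure D2:**
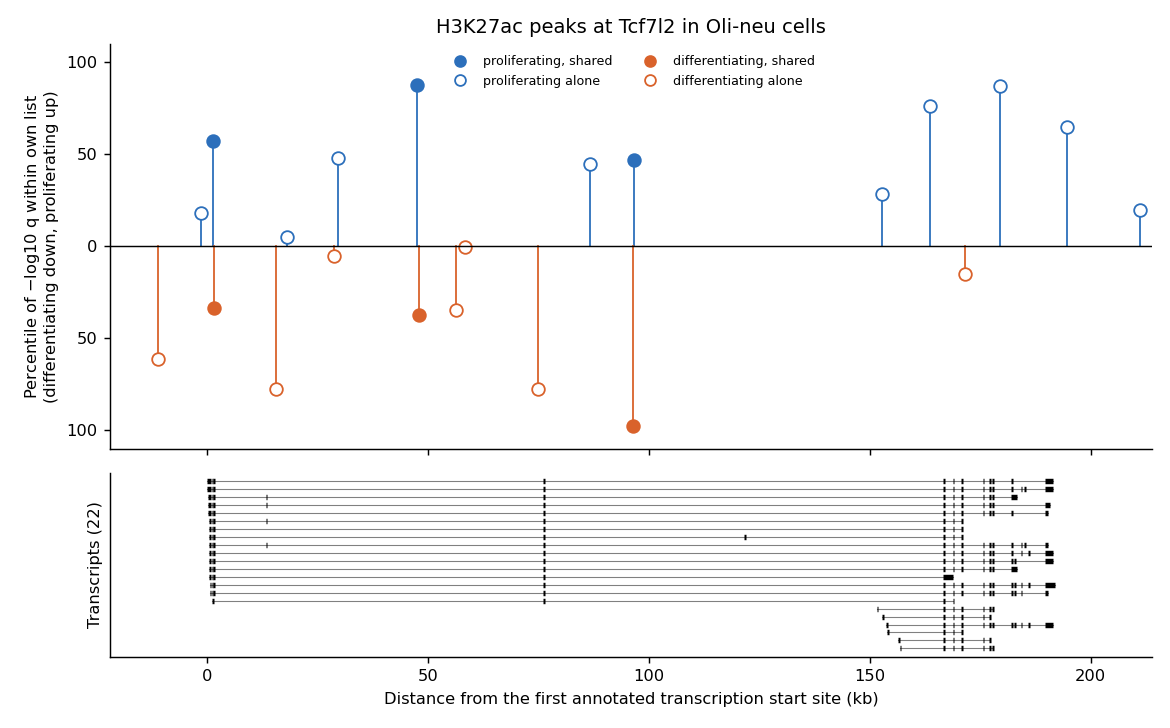
Each stem is an H3K27ac peak at Tcf7l2, placed by the distance of its centre from the first TSS (x axis, kb) and drawn to the percentile of its −log10 q within its own list (y axis; proliferating upward, differentiating downward), with filled circles for shared peaks, above the 22 annotated transcripts. The 3 shared regions lie within the first 100 kb, and past the first of the late starts, at 151532 bp, there are 5 proliferating peaks and 1 differentiating peak.

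By numbers of peaks in each list and of shared peaks, the genes most like Tcf7l2 among all protein-coding genes were Catspere2 on chromosome 1 (11 proliferating, 10 differentiating and 3 shared peaks), Plekhg1 on chromosome 10 (12, 11 and 3) and Tns3 on chromosome 11 (13, 10 and 3). Each differed from Tcf7l2 by 1 peak in all and lay in a region of 229282 to 272884 bp, against 231835 bp for Tcf7l2.

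Tcf7l1 (ENSMUSG00000055799.13, chr6:72626378-72789254, minus strand), which encodes a TCF factor known mainly as a repressor, had 4 peaks in proliferating and 9 in differentiating cells, or 19.7 and 44.4 per Mb. The density was above that of 59.1% of protein-coding genes in proliferating and of 85.2% in differentiating cells. The 2 shared regions were both in intron 3. The one nearer the TSS, 58153 to 58939 bp from it in proliferating cells, ranked alike in the lists, at percentiles of 75.9 (787 bp wide) and 73.2 (1967 bp wide). The other had a percentile of 26.2 in proliferating cells, where it was 1855 bp wide, and of 59.2 in differentiating cells, where it was 877 bp wide. A peak over the TSS was seen in differentiating cells alone, from −138 to 389 bp, with a fold enrichment of 3.74 and a −log10 q of 2.95 (percentile 79.8). The proliferating library had a peak of 263 bp upstream, from −1906 to −1644 bp (percentile 49.3), so the gene counted as having a promoter peak in both states although the peaks did not overlap. Intron 3 held another 5 peaks in differentiating cells alone, at percentiles from 5 to 80.1, and 1 in proliferating cells alone, at 55.3. The remaining differentiating peak lay downstream of the gene over the TSS of Tgoln1 (percentile 83.3).

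The central bases of both shared intron 3 regions of Tcf7l1 are shown on the strand of the gene, because each held 2 of the 3 motifs searched. Capitals mark CTTTGT, the reverse complement of the SOX core, and the E-box CAGCTG.
Tcf7l1 intron 3 region, farther from the TSS, chr6:72711468-72711767 (- strand): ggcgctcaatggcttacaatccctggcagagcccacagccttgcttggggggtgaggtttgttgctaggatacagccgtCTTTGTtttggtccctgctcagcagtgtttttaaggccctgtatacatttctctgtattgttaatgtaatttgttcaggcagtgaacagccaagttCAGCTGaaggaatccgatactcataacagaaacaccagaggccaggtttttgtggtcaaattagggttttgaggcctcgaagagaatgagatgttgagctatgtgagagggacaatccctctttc
Tcf7l1 intron 3 region, nearer the TSS, chr6:72730559-72730858 (- strand): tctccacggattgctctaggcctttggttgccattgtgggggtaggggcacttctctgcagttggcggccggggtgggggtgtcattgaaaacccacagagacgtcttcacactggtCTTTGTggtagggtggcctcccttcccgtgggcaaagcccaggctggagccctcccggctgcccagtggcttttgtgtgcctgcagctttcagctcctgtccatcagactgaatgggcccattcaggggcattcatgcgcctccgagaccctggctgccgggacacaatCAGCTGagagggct

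In windows of 300 bp at the centre of all peaks, ACAAAG on either strand occurred in 23.1% of proliferating and 23.1% of differentiating peaks, and CAGCTG in 15.4% and 15.9%. Among the promoters of RefSeq genes, of the same length, the shares were 18.7% and 16.3%.

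Tcf7 (ENSMUSG00000000782.15, chr11:52252371-52283014, minus strand) and Lef1 (ENSMUSG00000027985.14, chr3:131110471-131224356, plus strand) encode the remaining TCF/LEF factors, known best from lymphocytes. Neither had a peak in proliferating cells. Tcf7 had a differentiating peak of 930 bp in intron 2, with a fold enrichment of 2.93 and a −log10 q of 1.35 (percentile 14.3). Its second peak lay at the edge of the 20 kb flank, over the TSS of the neighbour Skp1a, with a fold enrichment of 6.04 and a −log10 q of 12.85 (percentile 99.4). Only 11 bases of it fell within the flank, and the matching proliferating peak (fold enrichment 5.27, percentile 99) ended 98 bp short of it. Lef1 had 1 differentiating peak, 672 bp wide, in intron 3, with a fold enrichment of 2.94 and a −log10 q of 1.37 (percentile 15.4). Within their gene bodies, Tcf7 and Lef1 were thus marked by a single peak of low rank each, in differentiating cells.

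Ctnnb1 (ENSMUSG00000006932.17, chr9:120929216-120960507, plus strand) encodes β-catenin, which also serves in cell adhesion. In differentiating cells it had a peak of 2245 bp, wider than 98.1% of the peaks in its list, from 3074 to 5318 bp past the first annotated TSS. It covered the starts of 6 of the 15 transcripts, and had a fold enrichment of 2.87 and a −log10 q of 1.72 (percentile 40.7). Relative to the start of the reference transcript, which lies downstream of the first TSS, it ran from −1110 to 1134 bp. It therefore counted as a promoter peak only when the start of every transcript was used. It was 64.4% G and C. In proliferating cells no peak was listed there, and the 1 peak near the gene was a downstream one of 263 bp (fold enrichment 3.10, −log10 q 1.43, percentile 13.3), 1818 bp from the TSS of Ulk4.

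Apc (ENSMUSG00000005871.15), a scaffold of the complex that marks β-catenin for degradation, had a peak over its first TSS in both states. It ran from −125 to 529 bp in proliferating cells, with a fold enrichment of 3.40 and a −log10 q of 1.87 (percentile 45.6). In differentiating cells it ran from −260 to 866 bp, with a fold enrichment of 4.05 and a −log10 q of 4.17 (percentile 91). Differentiating cells had a further peak of 520 bp over the starts of 2 further transcripts, from 26672 to 27191 bp (percentile 47.7), which had no counterpart. The last region, shared by both lists (percentiles 78.2 and 91.3), was over the TSS of the neighbour Srp19.

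Axin1 and Axin2 encode related scaffolds of the same complex, Axin2 being a widely used target gene of the pathway. Axin1 (ENSMUSG00000024182.16, chr17:26138688-26195811, plus strand) was marked over its TSS in differentiating cells alone, from −213 to 170 bp, with a fold enrichment of 4.18 and a −log10 q of 3.84 (percentile 89). Its single proliferating peak was in intron 2, at a percentile of 22.7, and 76.3% of its bases were annotated as repeats. Axin2 (ENSMUSG00000000142.15, chr11:108920349-108950783, plus strand) had a start site peak in both states, and in both it was among the highest ranked peaks at the 10 genes. It ran from 143 to 764 bp in proliferating cells, with a fold enrichment of 4.31 and a −log10 q of 7.91 (percentile 98.7). In differentiating cells it was 1308 bp wide, from −23 to 1284 bp, with a fold enrichment of 3.83 and a −log10 q of 6.20 (percentile 96.7). Since the proliferating peak began past the promoter region, Axin2 counted as having a promoter peak in differentiating cells alone. It counted in both when the region was 1000 bp on either side of the TSS or when every transcript start was used. The proliferating list had a further peak in intron 3 (percentile 74.5) and one downstream of the gene (percentile 64.3).

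The 238 bp of the first intron that lie near the start of the shared Axin2 region, before the start of another transcript, are shown, because they hold 1 copy of CTTTGA, in capitals, within the highest ranked region found in both states at one of the 10 genes themselves.
Axin2 first intron, chr11:108920562-108920799 (+ strand): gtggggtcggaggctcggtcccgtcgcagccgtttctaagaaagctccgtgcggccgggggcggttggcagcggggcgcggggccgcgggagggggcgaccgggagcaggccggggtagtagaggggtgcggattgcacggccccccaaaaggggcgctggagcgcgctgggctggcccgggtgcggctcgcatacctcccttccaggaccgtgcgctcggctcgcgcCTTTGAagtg

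CTTTGA on either strand occurred in 18.4% of the central 300 bp windows of all proliferating peaks, in 18.4% of those of differentiating peaks and in 16% of 32851 RefSeq promoters. Among the peaks at the 10 genes it occurred in 8 of 27 (29.6%) in proliferating and in 3 of 32 (9.38%) in differentiating cells. Of the 8, 5 were at Tcf7l2, and the others were at Ctnnb1, Axin1 and Axin2. The counts cover only the central 300 bp of each peak, so they depend on where the centre of a peak falls. The Axin2 copy shown above also lies within the differentiating peak, but outside its central 300 bp, and is not among the 3. The shares of ACAAAG were 18.5% and 21.9%, and those of CAGCTG were 14.8% and 3.12%. A match of 6 letters is a description of the sequence and no evidence of binding.

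Apcdd1 and Rnf43 act at the cell surface, Apcdd1 as an inhibitor that binds ligand and receptor and Rnf43 as a ubiquitin ligase that removes Frizzled receptors. Apcdd1 (ENSMUSG00000071847.13) had no peak over its body in either state. Its only peak, in proliferating cells, lay over the TSS of the neighbour Napg and was 1524 bp wide (fold enrichment 3.35, percentile 39). Rnf43 (ENSMUSG00000034177.15, chr11:87662722-87735539, plus strand) had intronic peaks that were not shared, 2 in proliferating cells (percentiles 67.5 and 77.9) and 3 in differentiating cells (percentiles 32.4 to 86.2). Its shared region covered the TSS of the neighbour Supt4a, at percentiles of 27.3 and 58.8. Neither gene had a peak over a start site of its own.

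**Figure D3:**
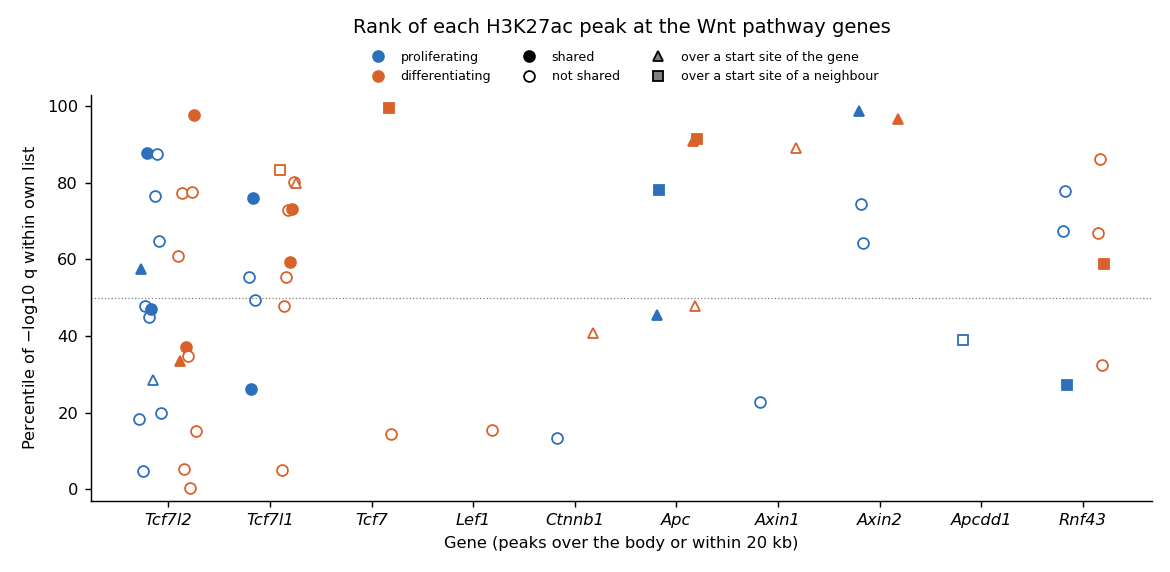
Each symbol is a peak at one of the 10 genes (x axis), placed by the percentile of its −log10 q within its own list (y axis), in blue for proliferating and orange for differentiating cells, with triangles over a start site of the gene, squares over that of a neighbour, and filled symbols for shared peaks. The start site peaks of Axin2 lie at percentiles of 98.7 and 96.7 in both states, and those of Tcf7l1, Axin1 and Ctnnb1 are seen in differentiating cells alone.

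Over the 10 genes, 9 of 27 proliferating peaks were shared with the other state, or 33.3% (95% exact Clopper-Pearson interval 16.5 to 54%), and 10 of 32 differentiating peaks, or 31.2% (16.1 to 50%). In the whole lists 29.2% and 30.1% of peaks were shared, close to the shares at these genes. With a reciprocal overlap of at least 0.5 the shares were 14.8% and 15.6% at the 10 genes and 16.7% and 17.3% in the whole lists. The intervals cover counting error only. A shared peak was present at 6 of the 10 genes and at 40.8% of all protein-coding genes. At Tcf7 and Rnf43 the only shared peak lay over the start site of a neighbour, and the share over all genes counts such peaks as well. Peaks over a start site of the gene itself numbered 4 in proliferating cells, of which 3 were shared, and 7 in differentiating cells, of which 3 were shared. They belonged to 3 and 6 of the 10 genes. Of the peaks over no TSS, 4 of 20 and 4 of 21 were shared. In the whole lists, 80.3% and 69.9% of peaks over a TSS and 19.5% and 20.2% of the others were shared.

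The median percentile of −log10 q was 49.3 for the 27 proliferating and 60.1 for the 32 differentiating peaks, where the middle of a whole list is by construction at 50. Peaks over a TSS ranked higher in the whole lists, with medians of 78.1 in proliferating and 77.3 in differentiating cells. For peaks over a start site of the 10 genes themselves, the medians were 51.6 (4 proliferating peaks) and 79.8 (7 differentiating peaks). For their peaks over no TSS the medians were 52.3 and 55.4. At the 10 genes, peaks above the 90th percentile numbered 1 of 27 in proliferating cells, at Axin2, and 5 of 32 in differentiating cells, at Tcf7l2, Apc, Axin2 and the start sites of Skp1a and Srp19. By construction, about 90% of a whole list lies below that percentile, and the difference between these small counts was not tested. Several start site peaks were rich in G and C, as at Axin2 (69.9% and 71.1%), Apc (74% and 64.2%) and Axin1 (70.1%).

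For the rest of the pathway, 86 other genes were grouped by role. A promoter peak was found at 23 (26.7%) in proliferating cells, at 24 (27.9%) in differentiating cells and at 18 (20.9%) in both, close to the shares over all protein-coding genes given above. The roles differed in these counts. Of the 13 cytoplasmic components, 8 had a promoter peak in each state and 7 in both, among them the kinase genes Csnk1d (percentiles 98.3 and 96.5), Gsk3b (88.3 and 80.9) and Csnk1a1 (68.1 and 86.1) and Btrc (94.6 and 94.2), which encodes the ubiquitin ligase subunit that recognises phosphorylated β-catenin. The lowest ranked of the 7 stood at 41.1 and 1.83. In the whole lists, peaks over a TSS had median percentiles of 78.1 and 77.3, beside which the percentiles in this list should be read. Nuclear cofactors had one at 5 and 4 of 9 genes. These included Bcl9 (81.9 and 93.5), a coactivator gene, and Tle4 (73.6 and 95.3), a corepressor gene. Of the 15 receptor genes 4 had a promoter peak in proliferating and 5 in differentiating cells, with Lrp6 (92.2 and 99), Fzd3 (95.5 and 76.8) and Fzd2 (89.1 and 72.5) in both.

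Among the 19 ligand genes, a promoter peak was found at 2 in proliferating cells, Wnt3a and Wnt5b, and at 1 in differentiating cells, Wnt7b, and none of the 11 secreted inhibitors or of the 2 genes of ligand secretion had one. Of 8 genes around R-spondin signalling, 1, Lgr4, had one in both states. Of 5 target genes, Myc (89.3 and 93.7) and Ccnd1 (82.2 and 84) had a promoter peak in both states, and Sp5 and Id2 in differentiating cells alone. Cby1, an antagonist of β-catenin in the nucleus, had the highest ranked promoter peaks of the list (99.5 and 99.2) and was the only one of 4 intracellular inhibitors with a promoter peak. Wnt3a, Wnt5b, Wnt7b, Lgr4, Sp5 and Id2 were named after their values were seen.

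**Figure D4:**
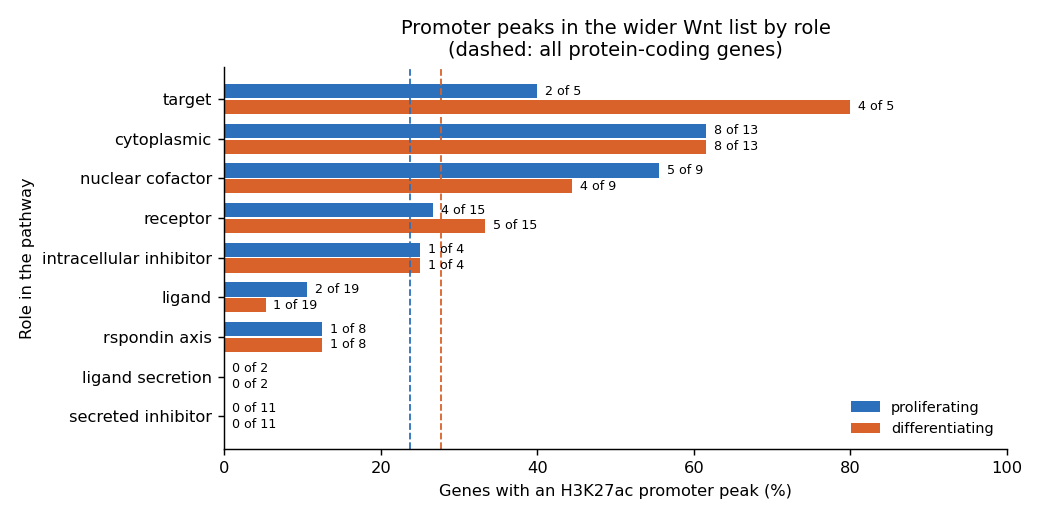
Bars give the percentage of genes with an H3K27ac promoter peak (x axis) for each role in the list of 86 Wnt pathway genes (y axis), in proliferating (blue) and differentiating (orange) cells, with the number of genes at each bar and dashed lines at 23.7% and 27.7% for all protein-coding genes. Cytoplasmic components reached 8 of 13 in each state, whereas secreted inhibitors stood at 0 of 11.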

How the data were processed

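H3K27ac ChIP-seq was carried out in proliferating and differentiating Oli-neu cells, 1 library each. The authors mapped reads to GRCm38/mm10 with Bowtie2 2.1.0, removed PCR duplicates with SAMtools, called broad peaks with MACS2 2.0.10 at a stated q limit of 0.05, filtered blacklisted regions with bedtools and deposited a peak list per library; no input library is named in the sources used here. Tools and versions follow the submitters' processing notes and the study's methods. The deposited lists have no header: a text cell per peak holds 3 values. They were taken, by the order MACS uses, as the fold enrichment (a ratio over background), the −log10 p-value and the −log10 q-value. Some differentiating peaks had a q above 0.05.

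Peaks were assigned to genes of GENCODE M21 within 20000 bp of the gene body, with Python 3.11.15, scipy 1.17.1 and matplotlib 3.10.9. Any shared base counted as shared. The scripts were tested on simulated data. The 10 genes and the other lists were chosen with earlier results of these data known. Of the 86 other Wnt genes, at most 12 with a promoter peak in both lists were named by mean percentile, beside all 10 genes, the lineage markers and the 3 genes most like Tcf7l2. In the list of 86, 1 symbol (Tle5) was matched through a RefSeq synonym. Alternatives changed the threshold, the distance, the overlap and the promoter region. Sequences came from GRCm38.p6 (RefSeq), and for 2 genes no coordinates or sequence are given. The values of 1 lineage marker and the sequence of 1 region are not reported here.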

Additional observations from a re-analysis of the deposited data

How the results depend on the processing

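Of 86 alternative values, 68 stayed within the range of the value reported (a factor of 1.5 for counts, the 95% interval for shares) and 18 moved. Limiting both lists to a −log10 q of at least 5 left 1 gene of the 10 with a peak in proliferating cells and 3 in differentiating cells, with 1 and 3 peaks at these genes, of which 100% and 66.7% were shared. It left 0 and 1 genes with a promoter peak, 0 shared peaks at Tcf7l2 in either list, and 2 and 4 of the 86 other genes with a promoter peak; the limit itself leaves fewer peaks. Peaks within 50000 bp numbered 43 in proliferating and 43 in differentiating cells, and peaks over the gene body alone numbered 18 and 27. Within 20000 bp they numbered 27 and 32, so the difference in number between the lists depended on the distance. A reciprocal overlap of at least 0.5 lowered the shared peaks to 14.8% and 15.6%, and those of Tcf7l2 to 1 and 1. An overlap of at least 0.5 of the peak counted left 1 shared proliferating peak at Tcf7l2. Leaving out peaks over the TSS of another gene, an alternative chosen after seeing the data, gave 7 and 9 genes with a peak, 24 and 28 peaks, and 29.2% and 25% shared. No paired analysis was possible because each state had 1 library and no result came from a test. Without replicates, the spread between cultures is unknown, and absence from a list says only that a region did not pass the peak caller.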
